A study of Danio rerio with 14 samples.

Results

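The potassium channel gene kcnj13 (ENSDARG00000043443, symbol KCNJ13) was described in the intestine of zebrafish that carry an agouti transgene and of wild-type fish. It is 1 row of a count table of 32520 zebrafish genes. The gene was chosen by its counts in these same transgenic and wild-type libraries, where it was nearly silent in wild-type fish, so the difference between genotypes is given below as a description, with no test. The 14 libraries fell into 4 groups: 3 transgenic M, 3 transgenic H, 4 M from wild-type fish and 4 H from wild-type fish. M and H stand in the titles of the samples, and the labels do not explain them. Transgenic libraries carry the genotype label Tg(Xla.Eef1a1:Cau.Asip1)iim04. By the usual naming of such constructs this places goldfish Asip1, which encodes agouti signalling protein, under the broadly active promoter of frog Eef1a1, in a single line. Wild-type libraries carry the label Tubingen. The background strain of the transgenic fish, their age, and whether a library holds 1 fish or a pool are not known from the labels, so transgene and background cannot be told apart, and p-values measure the spread between these libraries, which may be technical in part.

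The gene encodes Kir7.1, an inwardly rectifying potassium channel that passes potassium in small, steady currents. In mammals it sits beside the sodium pump in transporting epithelia such as the retinal pigment epithelium, the choroid plexus and the thyroid, and it has been found in the intestine. In zebrafish, mutations of kcnj13 broaden and disrupt the body stripes through its function in pigment cells. In mouse hypothalamic neurons the melanocortin receptor MC4R acts on Kir7.1, and an agouti-related peptide acts on the same pair in the opposite sense to melanocortin.

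Each transgenic library held 11792225 to 14091791 counts in all, and each wild-type library 9847910 to 13727372. Markers of absorptive enterocytes, 27 genes matched and all detected, summed to 26773 to 66119 CPM (counts scaled to a common library size) in transgenic libraries and to 26809 to 41926 CPM in 6 of the 8 wild-type libraries. Wild-type H replicates 6 and 7 stood apart, with enterocyte sums of 2028 and 3695 CPM and ovary marker sums of 14326 and 1665 CPM. Ovary sums were 0.507 to 257.6 CPM in transgenic libraries. In the other wild-type libraries they were 1.48 to 674.1 CPM, the highest in wild-type H replicate 8. Several values below that these 2 libraries carry are also given without one or both of them, and for others the library is named.

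Reads of kcnj13 numbered at least 110 in every transgenic library and were nearly absent from most wild-type ones. Transgenic M replicates 9, 10 and 11 had 233, 131 and 110 counts, against 2, 0, 2 and 2 counts in wild-type M replicates 1, 2, 3 and 4. Transgenic H replicates 13, 14 and 16 had 119, 221 and 200 counts, against 2, 1, 15 and 3 counts in wild-type H replicates 5, 6, 7 and 8. The genotypes did not overlap, and the lowest transgenic library was 9.78-fold above the highest wild-type library in CPM. This split is the one on which the gene was chosen, and the share of all tested genes without overlap is not given here. In all, 1014 counts came from the 6 transgenic libraries and 27 from the 8 wild-type libraries, of which wild-type H replicate 7 gave 15. The 0 in wild-type M replicate 2 has an exact Poisson 95% upper bound of 3.69 counts, and 3 counts there were worth 0.278 CPM. The 15 counts of wild-type H replicate 7 have an exact Poisson 95% interval of 8.40 to 24.7. That of the 3 counts of wild-type H replicate 8 is 0.619 to 8.77, so these intervals overlap only at their ends. Such intervals cover counting error only, and the difference between these libraries was not tested.

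**Figure D1:**
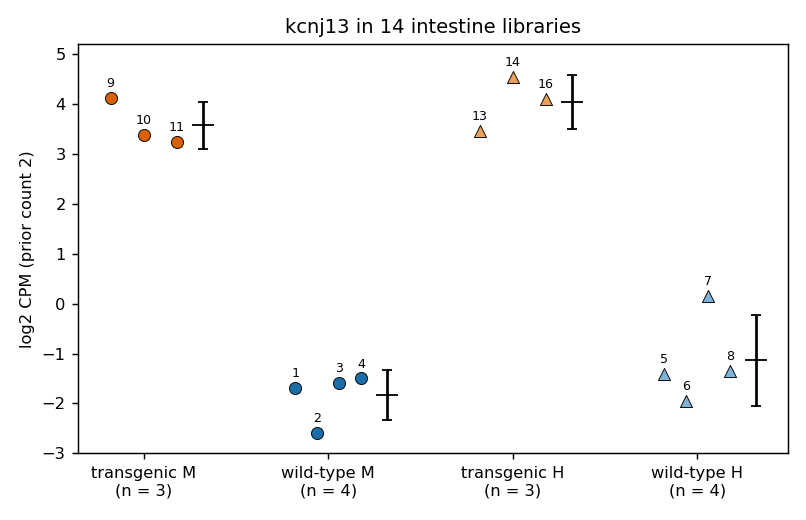
Level of kcnj13 in each library as log2 CPM with a prior count of 2 (vertical axis), by group (horizontal axis); points carry the replicate number, and the bar beside each group is its mean ± SD. The 6 transgenic libraries lie between 3.24 and 4.54, and the 8 wild-type libraries between -2.58 and 0.16, with wild-type H replicate 7 the highest of these.

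Scaled to library size, kcnj13 was at 14.6 ± 5.38 CPM in transgenic libraries and at 0.247 ± 0.294 CPM in wild-type libraries (SD, n = 6 and 8), a 59.06-fold ratio of the means. Without wild-type H replicate 7 the ratio was 99.7-fold, and without wild-type H replicates 6 and 7 it was 93.8-fold. By letter, transgenic M libraries averaged 12.2 ± 4.29 CPM and wild-type M libraries 0.124 ± 0.0845 CPM (SD, n = 3 and 4), a 98.4-fold ratio. Each of these 4 wild-type libraries lay under the value of 3 counts, so this ratio rests on 6 counts in all, with an exact Poisson 95% interval of 2.202 to 13.1 counts. Transgenic H libraries averaged 16.95 ± 6.09 CPM and wild-type H libraries 0.370 ± 0.392 CPM (SD, n = 3 and 4), a 45.9-fold ratio. The fitted log2 fold change by genotype was 5.95, with 6.49 in M and 5.41 in H. In the same fit 784 of 18619 tested genes were called by genotype (edgeR quasi-likelihood test, adjusted p under 0.05), which is 4.21% of them, 2.19% higher and 2.02% lower in transgenic libraries.

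Relative to other detected genes, kcnj13 was of middle rank by FPKM in transgenic intestine and near the bottom in most wild-type libraries. Per length, it was at 1.94 ± 0.661 FPKM in transgenic libraries and 0.0451 ± 0.0694 FPKM in wild-type libraries (SD, n = 6 and 8), by the authors' deposited FPKM values. Of the genes detected in a library, 40.1% to 53.6% had a lower FPKM in transgenic libraries, against 0% to 2.26% in wild-type libraries other than H replicate 7, where 13.5% did. The FPKM values imply a counted length of 6938 bases for kcnj13, against 1008 to 4877 bases for the other inward rectifier genes with counts. At equal counts in a library a longer gene has the lower FPKM, and so the lower rank. The difference in rank between genotypes also restates the one on which the gene was chosen.

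Among the transgenic libraries kcnj13 varied 2.48-fold in CPM. The 3 highest were transgenic H replicate 14 at 23.0 CPM, transgenic M replicate 9 at 17.1 CPM and transgenic H replicate 16 at 16.9 CPM, and transgenic H replicate 13, transgenic M replicate 10 and transgenic M replicate 11 were lower at 10.9, 10.2 and 9.30 CPM. Libraries of both letters were among the highest and the lowest. H against M, a comparison that did not enter the choice of the gene, was not called. In transgenic fish the log2 fold change was 0.47 (SE 0.63, 95% interval -0.89 to 1.83, adjusted p = 1), so that differences from 0.541-fold to 3.56-fold remain within the interval. Transgenic H libraries also carried 97684 to 251107 CPM of yolk precursor markers, 7 genes all detected, against 0.588 to 9.63 CPM in transgenic M libraries. Among wild-type libraries, H replicate 8 had 61532 CPM of them, and H replicates 6 and 7 had 19.5 and 2.66 CPM. The part of yolk markers in the comparison was not tested. Averaged over genotypes the log2 fold change of kcnj13 for H against M was 1.01 (SE 0.49, 95% interval -0.05 to 2.07, adjusted p = 0.650). Without wild-type H replicate 7 this average was 0.47 (adjusted p = 0.760). The difference between genotypes in the H against M change was -1.08 (SE 0.95, 95% interval -3.14 to 0.98, adjusted p = 0.726). In edgeR 0 of the 18619 genes, 0%, were called for either H against M comparison; 1449 had an unadjusted p under 0.05 for the average and 327 in transgenic fish, and DESeq2 called 349 and 46.

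The genes on either side of kcnj13 were then examined. The count table follows the genome here: of the 10 rows before and 10 after kcnj13, 12 could be placed by symbol in the GRCz12tu gene table, all on chromosome 15 and in ascending order together with kcnj13. Of the 13 neighbours with enough counts to be tested by genotype, 1 rose and 0 fell, against 4.21% called among all genes, and their median log2 fold change was 0.03, against -0.11 over all tested genes.

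The neighbour that rose was si:ch211-281l24.3 (ENSDARG00000068637), a protein-coding gene known here by its clone name, with 1 gene between it and kcnj13. It had 5421, 2817 and 2200 counts in transgenic M replicates 9, 10 and 11, against 454, 347, 483 and 342 in wild-type M replicates 1, 2, 3 and 4. It had 2333, 4820 and 4267 counts in transgenic H replicates 13, 14 and 16, against 354, 25, 279 and 377 in wild-type H replicates 5, 6, 7 and 8. The genotypes did not overlap, and the lowest wild-type library was H replicate 6. The share of all tested genes whose genotypes do not overlap is not given here. The mean was 313.4 ± 126.9 CPM in transgenic libraries and 27.8 ± 12.3 CPM in wild-type libraries (SD, n = 6 and 8), which gave 3.52 as the log2 fold change (SE 0.47, edgeR adjusted p = 0.00104). The call held with each library left out in turn, with adjusted p up to 0.00446, and without wild-type H replicates 6 and 7 the ratio of means was 9.29-fold. Per length it was at 23.7 ± 9.34 FPKM in transgenic and 2.36 ± 0.910 FPKM in wild-type libraries, above kcnj13 in each of the 14 libraries.

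**Figure D2:**
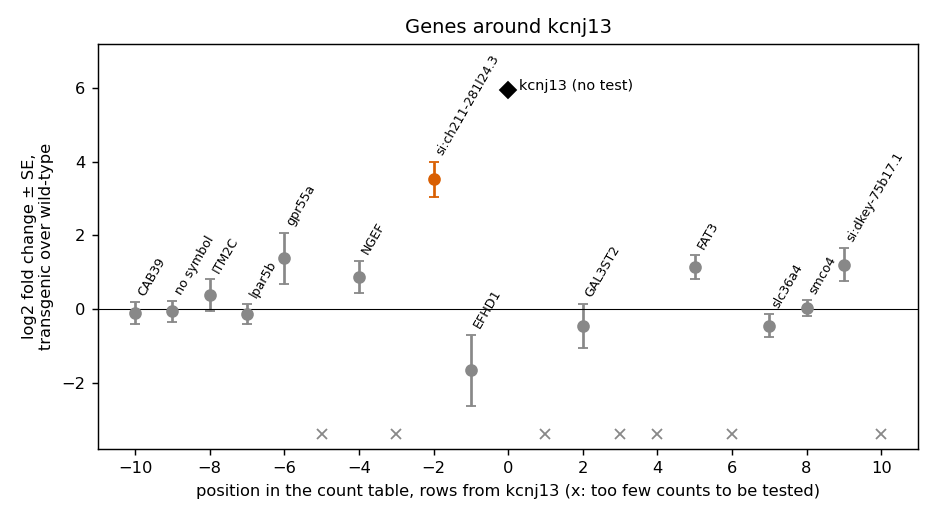
Log2 fold change of transgenic over wild-type libraries, with its SE, for the tested genes among the 10 rows on each side of kcnj13 (horizontal axis: rows from kcnj13 in the count table); orange marks the neighbour with adjusted p under 0.05, crosses mark rows with too few counts to be tested, and kcnj13 is drawn without a test. si:ch211-281l24.3, at 3.52, stands above the 12 other tested neighbours, which lie between -1.67 and 1.38.

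Between kcnj13 and this neighbour lies EFHD1, which encodes a calcium-binding protein of mitochondria. It had 0 to 8 counts in transgenic libraries and 1 to 109 in wild-type libraries, with the highest value in wild-type H replicate 6 (log2 fold change -1.67, SE 0.97, adjusted p = 0.354). The 6 wild-type libraries other than H replicates 6 and 7 had 1 to 13 counts, and with these 6 alone the gene had too few counts to be tested. On the other side of kcnj13, GAL3ST2, a sulfotransferase that acts on galactose residues, had 0 to 12 counts in transgenic and 1 to 22 in wild-type libraries (log2 fold change -0.46, adjusted p = 0.688). FAT3, an atypical cadherin, was at a log2 fold change of 1.13 (adjusted p = 0.0730). In the GRCz12tu gene table kcnj13 overlaps gal3st2 and a long non-coding RNA, LOC141377912, and does not overlap si:ch211-281l24.3. The processing notes list GRCz11 as the zebrafish build, and overlap in the gene models that were counted was not checked. Since no source used here gives the strand setting of the counting, reads of overlapping genes may not be told apart.

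Within the transgenic fish, kcnj13 and si:ch211-281l24.3 were high and low in the same libraries. The ratio of their counts was between 19.6 and 23.3 in the 6 transgenic libraries, while both genes varied more than that among them. The correlation of their log2 CPM over these 6 libraries was 0.993 (Pearson), with a Spearman rho of 0.943 and a Pearson r of 0.986 without the 2 libraries farthest from the median of kcnj13. Over the 8 wild-type libraries, where kcnj13 had 0 to 15 counts, the Pearson r was 0.04 and the Spearman rho -0.14. The Pearson r was 0.81 without the 2 farthest libraries, wild-type H replicate 7 and wild-type M replicate 2. Wild-type H replicate 6 stayed in, with 1 count of kcnj13 and 25 of si:ch211-281l24.3, against 342 to 483 of the latter in the others kept. No coefficient without wild-type H replicates 6 and 7 together is given here. Of 18568 tested genes that varied among the transgenic libraries si:ch211-281l24.3 ranked 2nd by Pearson r there. GABPA, a transcription factor subunit named after its values were seen, ranked 1st at 0.996, and its log2 fold change by genotype was -0.25 (adjusted p = 0.447). Since 187 genes reached 0.9 over the 6 transgenic libraries, the coefficient is given as a description only. In wild-type libraries the ratio of counts was between 125.7 and 241.5 in the 5 with counts of kcnj13 other than H replicates 6 and 7, where it was 25.0 and 18.6 at 1 and 15 counts of kcnj13.

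**Figure D3:**
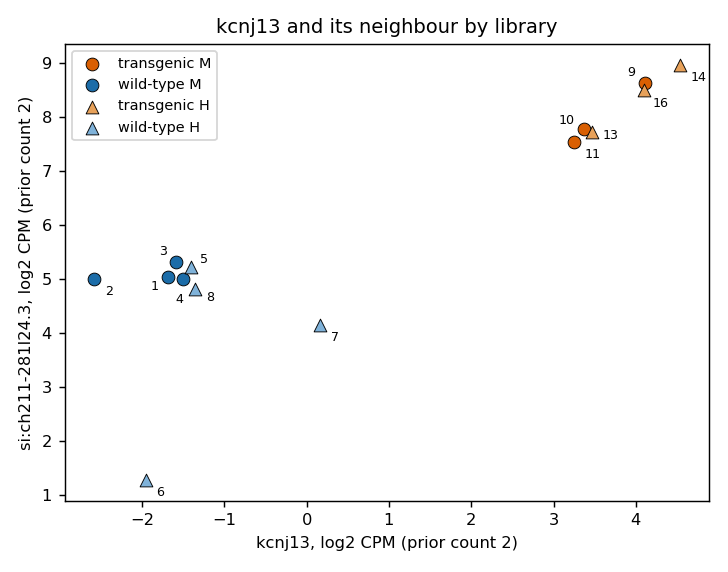
Log2 CPM (prior count 2) of si:ch211-281l24.3 (vertical axis) against kcnj13 (horizontal axis), 1 point per library with its replicate number; colour gives the genotype and the marker the letter. The 6 transgenic libraries form a rising line at the upper right, and the wild-type libraries lie to the lower left, with H replicates 6 and 7 away from the other 6.

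Genes with a pattern like that of kcnj13 were ranked over the libraries. By Pearson correlation with kcnj13 over all 14 libraries, the 6 highest among 11448 genes with a symbol and at least 5 CPM in 1 genotype were ftr80, a finTRIM gene (r = 0.976), ACADSB (ENSDARG00000098174), an acyl-CoA dehydrogenase (r = 0.975), mhc1zea, a class I histocompatibility gene (r = 0.971), ACKR3 (ENSDARG00000058179), a chemokine scavenger (r = 0.969), cbln7 (r = 0.964) and hnrnpa0a (r = 0.943). Over the 6 transgenic libraries alone their coefficients were 0.82, 0.42, 0.26, -0.66, 0.63 and 0.27, in that order. The 4 lowest over 14 libraries were RNF41, a ubiquitin ligase, and TMEM170A, a membrane protein, both at -0.96, the palmitoyltransferase ZDHHC4 at -0.95 and the centrosomal LRRCC1 at -0.95. All points share the split by genotype on which kcnj13 was chosen, so these coefficients largely restate that split. For hnrnpa0a the genotypes overlapped at a single library, wild-type H replicate 7, with 400 counts against 0 to 2 counts in the wild-type libraries other than H replicates 6 and 7.

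The level of kcnj13 was also set beside that of the other inward rectifier genes. Its rank and share among them restate the genotype difference on which the gene was chosen, and are given as a description. The table holds 29 inward rectifier rows, of which 9 had 0 counts in all libraries. Per length, kcnj13 had the highest mean FPKM of the 29 in transgenic libraries and the 15th in wild-type libraries. It made up 20.9% to 50.1% of the summed FPKM of the family in transgenic libraries, against 0% to 0.835% in wild-type libraries. The other members summed to 2.65 to 5.94 FPKM in transgenic libraries and 2.33 to 25.5 FPKM in wild-type libraries, the highest again wild-type H replicate 7. The medians of these sums were 4.22 and 4.88 FPKM. Without kcnj13, KCNJ8, the Kir6.1 subunit of channels gated by ATP in blood vessel muscle, led the family at 1.46 ± 0.637 FPKM in transgenic and 3.94 ± 6.12 FPKM in wild-type libraries (SD, n = 6 and 8; log2 fold change -0.98, SE 0.63, edgeR adjusted p = 0.397). In transgenic M replicate 11 KCNJ8 was above kcnj13, at 2.60 against 1.32 FPKM. Wild-type H replicate 7 held 237 of the 433 wild-type counts of KCNJ8. Its log2 fold change was -0.12 without that library (adjusted p = 0.8999) and -0.24 once wild-type H replicate 6 was dropped too (adjusted p = 0.796). KCNJ6, a subunit of channels gated by G proteins, was at 0.582 ± 0.131 and 0.744 ± 0.552 FPKM in transgenic and wild-type libraries (adjusted p = 0.982), kcnj19b at 0.501 ± 0.281 and 0.344 ± 0.269 FPKM (adjusted p = 0.422), and kcnj21 at 0.210 ± 0.188 and 0.338 ± 0.418 FPKM (adjusted p = 0.862).

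**Figure D4:**
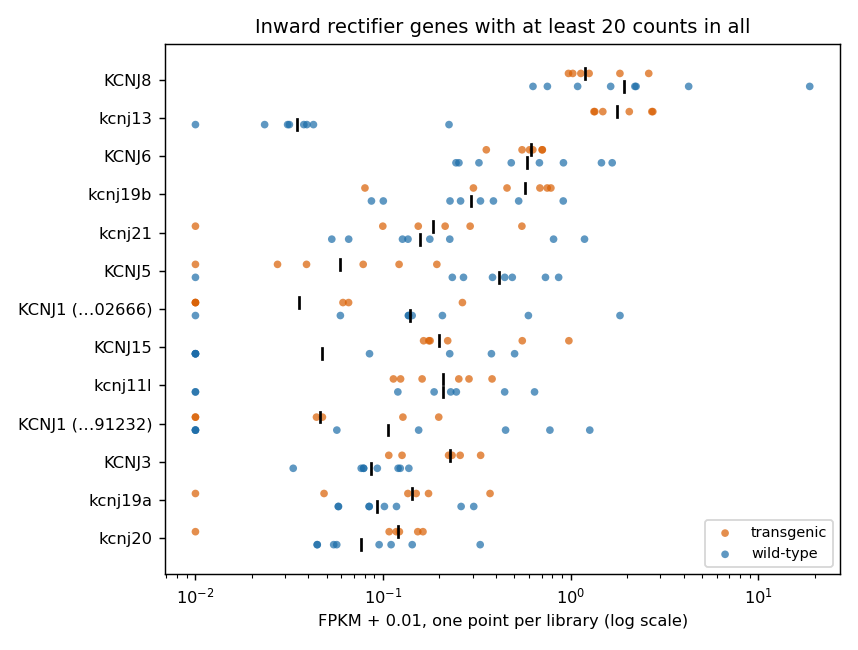
FPKM plus 0.01 on a log axis for the inward rectifier genes with at least 20 counts in all, 1 point per library, transgenic above wild-type for each gene, with the median as a black line; numbers after KCNJ1 end the identifier. The 6 transgenic and 8 wild-type libraries are apart for kcnj13 and overlap for the other genes drawn.

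Of the 28 other inward rectifier rows, 7 had enough counts to be tested by genotype, 1 rose and 0 fell, against 4.21% called among all genes. Their median log2 fold change was -0.25, against -0.11 over all tested genes, and 2 of the 7 were positive. KCNJ5 (ENSDARG00000061014), not called, had 0 to 11 counts in transgenic and 0 to 47 in wild-type libraries, with the 0 in wild-type H replicate 6. Its log2 fold change was -2.42 (SE 0.85, edgeR adjusted p = 0.149). The member that rose was KCNJ3 (ENSDARG00000062217), a subunit of channels gated by G proteins, at 0.935 ± 0.331 CPM in transgenic and 0.344 ± 0.144 CPM in wild-type libraries (SD, n = 6 and 8; log2 fold change 1.42, SE 0.35, edgeR adjusted p = 0.0395). It had 6 to 18 counts in transgenic and 1 to 6 in wild-type libraries, the call survived 2 of 14 omissions of a single library (those of wild-type H replicate 5 or 6), and it was lost without wild-type H replicates 6 and 7 together (adjusted p = 0.0546). By H against M, 0 of the 7 were called in edgeR or DESeq2, and edgeR gave none of them an unadjusted p under 0.05.

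Among the 100 rows of other potassium channel subunits, 35 were tested, 3 rose and 0 fell, against 4.21% called among all genes, with a median log2 fold change of 0.03, against -0.11 over all tested genes. KCNG1, a subunit that is silent alone and modifies voltage-gated channels, was at 1.30 ± 0.558 CPM in transgenic and 0.293 ± 0.166 CPM in wild-type libraries (SD, n = 6 and 8; log2 fold change 2.24, SE 0.37, edgeR adjusted p = 0.00393). KCNK3 (ENSDARG00000052898), an acid-sensitive background channel, was at 6.71 ± 1.63 CPM in transgenic and 1.87 ± 1.08 CPM in wild-type libraries (log2 fold change 1.89, SE 0.36, adjusted p = 0.00926). For these 2 genes the genotypes did not overlap, again with no share over all tested genes, and the calls held with each library left out. KCNG1 had few counts, 10 to 25 in transgenic and 1 to 8 in wild-type libraries. Its lowest transgenic value was 0.735 CPM and its highest wild-type value 0.600 CPM. The background channel kcnk1a was at 15.2 ± 4.76 CPM in transgenic and 6.31 ± 2.25 CPM in wild-type libraries (log2 fold change 1.30, SE 0.32, adjusted p = 0.0361); its groups overlapped at transgenic H replicate 14, the call survived 3 of 14 omissions of a single library (those of transgenic H replicate 14, wild-type H replicate 6 or wild-type H replicate 7), and it was lost with no filter on low counts (adjusted p = 0.0511).

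Genes that share the potassium and chloride circuit of epithelia with Kir7.1, namely sodium pump subunits, cotransporters, exchangers and chloride channels, gave 27 tested members, of which 1 rose and 1 fell, against 4.21% called among all genes. Their median log2 fold change was -0.06, against -0.11 over all tested genes. The sodium pump subunit atp1a3b, an alpha-3 type known from neurons, was at 5.97 ± 1.32 CPM in transgenic and 1.78 ± 1.105 CPM in wild-type libraries (SD, n = 6 and 8; log2 fold change 1.78, SE 0.34, edgeR adjusted p = 0.0104), a call that held with each library left out. Its highest wild-type value, 4.19 CPM, lay just above its lowest transgenic value of 4.15 CPM. Enteric neuron markers, 14 genes all detected, summed to 25.3 to 70.9 CPM in transgenic libraries and 22.3 to 128.7 CPM in wild-type libraries. In M libraries these sums were 58.7 to 70.9 CPM in transgenic and 22.3 to 52.4 CPM in wild-type fish, without overlap. In H libraries they overlapped, at 25.3 to 37.5 CPM and 29.2 to 128.7 CPM. The chloride channel clcn2c fell (log2 fold change -4.03, adjusted p = 0.0430), with 2 to 8 counts in transgenic and 7 to 1314 in wild-type libraries. Wild-type H replicates 6 and 7 held 1314 and 220 of these counts, against 7 to 58 in the other wild-type libraries. The log2 fold change was -2.80 without wild-type H replicate 6 (adjusted p = 0.0313); the call survived 3 of 14 omissions (those of wild-type H replicate 5, 6 or 8) and was lost without wild-type H replicates 6 and 7 together (log2 fold change -2.15, adjusted p = 0.0618).

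**Figure D5:**
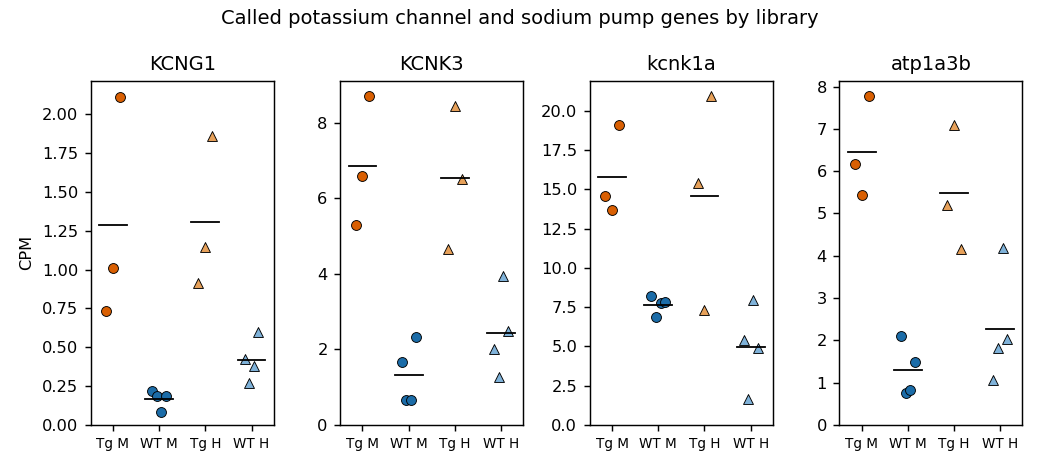
CPM of KCNG1, KCNK3, kcnk1a and atp1a3b (vertical axes, from 0) by group, 1 point per library, with the group mean as a line; Tg is transgenic and WT is wild-type. For KCNG1 and KCNK3 the transgenic libraries lie above the wild-type libraries, and for kcnk1a and atp1a3b a transgenic H library lies within the wild-type range.

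Pigment cell genes were examined because kcnj13 acts in pigment cells of zebrafish. All 40 matched rows were detected, 21 were tested, and 1 rose and 1 fell, against 4.21% called among all genes. The median log2 fold change was 0.05, against -0.11 over all tested genes, and 11 of the 21 were positive. Their summed level was 298.4 to 345.4 CPM in transgenic and 222.8 to 293.5 CPM in wild-type libraries, and TJP1, XDH, csf1ra and KIT, which other cells of the gut also express, held most of the counts. These sums did not overlap between the genotypes, though the nearest were 298.4 and 293.5 CPM. XDH averaged 106.4 and 53.6 CPM in transgenic and wild-type libraries (edgeR adjusted p = 0.268), and TJP1 136.5 and 114.5 CPM (adjusted p = 0.423). The part of the summed level in that of kcnj13 was not tested. The melanin genes had few counts in both genotypes outside wild-type H replicates 6 and 7. TYR, which encodes tyrosinase, had 0 to 8 counts in transgenic and 0 to 104 in wild-type libraries, and 0 to 11 in wild-type libraries without these 2. DCT had 0 to 3 counts in transgenic and 0 to 26 in wild-type libraries, and 0 to 2 in wild-type libraries without these 2. TYRP1 (ENSDARG00000029204) had 2 counts over the transgenic and 25 over the wild-type libraries, and OCA2 had 5 and 27. Another TYRP1 row (ENSDARG00000056151) had 7 and 6, and SLC24A5 had 2 and 1. These 4 rows had too few counts to be tested. For pmela the log2 fold change was -0.55 (edgeR adjusted p = 0.529). Among other pigment cell genes, a row with the symbol MITF (ENSDARG00000037833) had 12 to 41 counts in transgenic and 3 to 20 in wild-type libraries (log2 fold change 0.91, adjusted p = 0.267). Another MITF row (ENSDARG00000003732) had 17 counts over the transgenic and 33 over the wild-type libraries, too few to be tested. The receptor ltk of iridophores had 5 to 28 in transgenic and 1 to 75 in wild-type libraries (log2 fold change 1.47, adjusted p = 0.298). The 75 counts were in wild-type H replicate 6, and wild-type M libraries had 1 to 2. Negative values were seen for SOX10 (0 to 10 counts in transgenic, 3 to 52 in wild-type, log2 fold change -1.66, adjusted p = 0.234). The same held for slc2a15b (0 to 18 and 0 to 820 counts, log2 fold change -3.29, adjusted p = 0.244), with the 820 in wild-type H replicate 6. FHL2 (ENSDARG00000003991), a LIM-domain cofactor, rose (6.29 ± 5.66 CPM in transgenic and 0.734 ± 0.784 CPM in wild-type libraries, SD, n = 6 and 8; log2 fold change 2.88, SE 0.60, edgeR adjusted p = 0.0166), a call lost without transgenic M replicate 9 (adjusted p = 0.0570) and, at adjusted p = 0.0556, in M libraries only. Its genotypes overlapped, with wild-type M replicate 2 at 2.505 CPM and transgenic H replicate 16 at 2.118 CPM. Another FHL2 row (ENSDARG00000042018) was lower in transgenic libraries, at a mean of 5.111 CPM against 8.296 CPM in wild-type libraries. It was not called (log2 fold change -0.73, edgeR adjusted p = 0.314). ALX4 (ENSDARG00000088332), a homeobox factor, fell (log2 fold change -4.72, adjusted p = 0.0389), with 0 to 1 counts in transgenic and 0 to 14 in wild-type libraries; the call survived 2 of the 11 omissions after which it could be tested (those of wild-type M replicate 2 or wild-type H replicate 8) and was lost without wild-type H replicates 6 and 7 together (adjusted p = 0.0737).

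The genes of melanocortin receptors had few counts, at most 7 in any library. Whether such receptors have a part in the level of kcnj13 was not tested. MC4R had 8 counts over the 6 transgenic libraries and 6 over the 8 wild-type libraries, at most 4 and 3 in any library, too few to be tested. Of 19 rows of melanocortin and agouti genes 6 were tested, 0 rose and 1 fell, against 4.21% called among all genes, with a median log2 fold change of -0.18, against -0.11 over all tested genes. The member that fell was MGRN1 (ENSDARG00000100072), a ubiquitin ligase (log2 fold change -0.78, SE 0.19, edgeR adjusted p = 0.0352), whose call survived 3 of 14 omissions of a single library (those of wild-type M replicate 2, wild-type H replicate 6 or wild-type H replicate 8). Other tissues known for Kir7.1 were looked for by their markers. The thyroid list, 6 genes all detected, summed to 3.34 to 875.5 CPM in transgenic and 51.1 to 1631 CPM in wild-type libraries, most of it duox, an oxidase that the gut also expresses. The thyroid hormone precursor TG had 2 to 424 counts in transgenic and 2 to 15 in wild-type libraries. Its highest values, 424 and 330, were in transgenic H replicates 16 and 13, and transgenic H replicate 14 had 9. The deiodinase IYD had 178 and 204 counts in transgenic H replicates 13 and 16, at most 8 in the other transgenic libraries and 0 to 86 in wild-type libraries. Liver markers, 16 genes all detected, summed to 46026 to 48858 CPM in transgenic H replicates 13 and 16. Their sum was 3043 to 16535 CPM in the other transgenic libraries and 609 to 42080 CPM in wild-type libraries. The part of liver in the counts of TG and IYD was not tested. The iodide transporter SLC5A5 had 0 to 9 counts in transgenic and 0 to 176 in wild-type libraries, the highest in wild-type H replicate 6, and the receptor TSHR had at most 1 count in any library. Of the retinal pigment epithelium markers, 13 rows with 1 at 0 in all libraries, the sum was 3.72 to 12.4 CPM in transgenic and 3.34 to 23.4 CPM in wild-type libraries. Kidney markers, 17 rows with 1 at 0 in all libraries, summed to 265.4 to 1500 CPM in transgenic and 276.2 to 647.8 CPM in wild-type libraries, with CUBN, SLC20A1, podxl and slc22a4, which are not particular to the kidney, holding most of it. CUBN had 15 to 16574 counts in transgenic and 8 to 4145 in wild-type libraries. The kidney-specific umod had at most 1 count in any library, and the podocyte gene NPHS1 had 0 to 5 counts in transgenic and 0 to 57 in wild-type libraries, the highest in wild-type H replicate 6. The pigment cell sums, held mostly by genes that other gut cells also express, were narrowly apart between the genotypes, as given above. With M and H pooled, the summed marker level overlapped between genotypes for thyroid, retinal pigment epithelium, kidney, liver, enterocytes, ovary and enteric neurons. Within M the kidney and enteric neuron sums did not overlap. Kidney sums were 1038 to 1500 CPM in transgenic M and 276.2 to 523.8 CPM in wild-type M libraries. Enteric neuron sums were 58.7 to 70.9 CPM in transgenic M and 22.3 to 52.4 CPM in wild-type M libraries. Within H both sums overlapped, and the other sums listed here overlapped within each letter. The part of these tissues in the level of kcnj13 was not tested, and in such bulk samples fewer cells of a type and less RNA per cell cannot be told apart.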

How the data were processed

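Poly-A RNA of zebrafish intestine was sequenced in 14 libraries; per the labels' protocols a stranded kit was used. The submitters' processing notes list, without roles, STAR 2.7.3a, FastQC, edgeR and featureCounts 1.6.3 as tools and GRCz11, GRCm38.p6 and mm10 as builds. The authors deposited raw read counts per gene, which are not normalized, and FPKM values, which were checked to be those counts divided by gene length and column total. Symbols came from a supplied table that named 29201 of 32520 identifiers; 233 of 251 list names matched, 65 of them through a human-style symbol that paralogs can share. Neighbours were placed with a GRCz12tu gene table.

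Counts were tested with edgeR 4.0.16 in R 4.3.3 (filterByExpr, TMM, 1 mean per group over all 14 libraries, glmQLFit and glmQLFTest), with Benjamini-Hochberg adjustment over all 18619 tested genes and a threshold of 0.05. The procedure was tested on simulated data. Each SE is the size of the log2 fold change over the root of its F statistic, and the 95% intervals use that SE. CPM used TMM-scaled totals, and log2 CPM a prior count of 2. Log2 fold changes are transgenic over wild-type, or H over M. Named were, per list, up to 4 called members by smallest p or else the 2 with the smallest p. Also named were called neighbours, the 4 inward rectifiers of highest mean FPKM beside kcnj13, and the likeness ranking. Genes named as context (EFHD1, GAL3ST2, FAT3, KCNJ5, MITF, ltk, SOX10, slc2a15b, the other FHL2 row, melanin, thyroid and kidney genes) were chosen with their values seen. The gene and the lists were chosen with earlier results of these data known. Alternatives were RLE size factors, no filter, DESeq2 1.42.0, M libraries alone, leaving out wild-type H replicates 6 and 7, and leaving out each library.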

Additional observations from a re-analysis of the deposited data

Results flagged for a closer look

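Wild-type H replicate 7 stood apart from the other wild-type libraries for kcnj13, at 0.951 CPM, both among the 4 wild-type H libraries and among all 8 wild-type libraries. Its gap to the next library was 0.844 of the range among wild-type H libraries and 0.763 among all wild-type libraries. The same library had 3695 CPM of enterocyte markers against at least 26809 CPM in the wild-type libraries other than H replicates 6 and 7, and 128.7 CPM of enteric neuron markers against at most 53.5 CPM there. The part of these differences in the 15 counts was not tested. For si:ch211-281l24.3, wild-type M replicate 3 was the highest of the 4 wild-type M libraries, at 39.8 CPM, with a gap of 0.884 of the range. Of 8 groups examined for 2 genes, chance flags about 5%.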

How the results depend on the processing

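The log2 fold change of kcnj13 by genotype was 6.49 with the M libraries alone and between 5.77 and 6.50 with each library left out, the highest without wild-type H replicate 7. Its H against M comparisons stayed without a call in all 18 alternatives each (0.47 to 1.17 averaged over genotypes, 0.22 to 0.80 in transgenic fish). Genes called by genotype numbered 1474 without wild-type H replicates 6 and 7, 1838 in DESeq2, 783 with no filter and 742 with M libraries alone. With each library left out they numbered 483 to 1435 (lowest without transgenic M replicate 9, highest without wild-type H replicate 6). The counts of list members by genotype given below are to be set beside these totals. The share called over all genes in each of these settings is not given here. Called for H against M were 349 in DESeq2 and 0 to 173 with each library left out, the highest without wild-type H replicate 5; in transgenic fish they were 46 and 0 to 7. Of the other inward rectifiers 0 were called by genotype with no filter, 0 with M alone, 2 in DESeq2 and 0 to 2 with each library left out. Of the other potassium channels 6 were called in DESeq2 and 2 to 5 with each library left out. Of the pump and transporter list 1 was called without wild-type H replicates 6 and 7, 1 with M alone and 1 to 3 with each library left out. Of pigment cell genes 1 was called with M alone and 0 to 2 with each library left out. Of the neighbours 2 were called without wild-type H replicates 6 and 7, 2 with M alone, 2 in DESeq2 and 1 to 2 with each library left out. KCNJ6 turned to 0.42 without wild-type H replicates 6 and 7 and ranged from -0.15 to 0.21 with each library left out, and kcnj21 ranged from -0.75 to 0.044 (without transgenic H replicate 14), with no call for either. The cause was not tested. No paired analysis was possible because the groups share no replicate number. By the library totals before TMM scaling, 3 counts are worth 0.213 to 0.305 CPM, so a wild-type level of kcnj13 below about that was not measurable in a single library.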

Other observations

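An accessory protein of melanocortin receptors, mrap2b, had 29 counts over the 6 transgenic libraries, 15 of them in 1 library, and 3 over the 8 wild-type libraries, too few to be tested. It was named after its values were seen.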
